A study of Mus musculus with 48 samples.

Results

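The hippocampal sort labelled mCh neurons, in which mCh stands for the red fluorophore mCherry, came from mice of the genotype Aldh1l1-GFP. This line marks astrocytes with green fluorescent protein through regulatory sequence of Aldh1l1, which encodes a folate enzyme. Their RNA was sequenced in 6 libraries, 3 from mice labelled Gq-CNO and 3 from mice labelled Gq-Saline. These 6 of the 48 libraries of the series were taken by their column names in the deposited table of mCh sorts, which also holds 6 cortical and 6 olfactory bulb libraries. The table lists 24421 gene entries, and the 9808 with a normalised value of at least 10 in at least 3 of the 6 hippocampal libraries were tested. Gq is read here as an engineered Gq-coupled receptor, with CNO, clozapine-N-oxide, as the ligand and saline as the vehicle. The Aldh1l1-GFP genotype and the Gq label are shared by both groups, so the comparison is of ligand against vehicle. The receptor's carrier cells and promoter, the dose, the time, the age and the sex are not given in the labels used here. Nothing in them says that each library came from a separate mouse, so the p-values below measure the spread between these libraries, which may be technical.

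As background, a Gq-coupled receptor activates phospholipase C, which releases calcium from internal stores and activates protein kinase C. In hippocampal pyramidal and granule neurons, strong activity and calcium entry induce immediate early genes such as Fos, Arc, Npas4 and Egr1. The hippocampus also holds astrocytes, which supply neurons with transmitter precursors and clear potassium, myelinating oligodendrocytes and their precursors, microglia, and the capillary endothelium that forms the blood-brain barrier.

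The reads assigned to genes numbered 2627051, 10295394 and 4383462 in Gq-CNO replicates 1 to 3 and 3061693, 6801010 and 2226636 in Gq-Saline replicates 1 to 3. The ribosomal RNA entry Rn45s took 14.73% to 18.02% of reads. Libraries of the same group correlated at a Pearson's r of 0.69 to 0.78 over the log2 values of the tested genes, and libraries of different groups at 0.72 to 0.78, and these ranges overlap. 1 library stood apart. Gq-Saline replicate 1 had 0 reads of the Y-linked Kdm5d, Uty and Eif2s3y, whereas the other 5 libraries had each of them. The 4 tested sex-linked genes were all higher in Gq-CNO. Their median log2 difference was 1.72 in limma and 0.33 in edgeR, tests described below. The part of sex in the differences below was not tested.

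The markers of several cell types were present in every library, and those of neurons did not lead. With reads scaled to a library total of 1000000 (RPM), 20 neuron markers summed to 4320, 4797 and 4209 RPM in Gq-CNO and to 3357, 3904 and 3393 RPM in Gq-Saline, with every Gq-CNO library above every Gq-Saline library. The sums ran from 22770 to 62890 RPM for 20 mature oligodendrocyte markers, from 12260 to 21060 for 20 microglia markers, from 6980 to 11720 for 20 astrocyte markers and from 5953 to 8499 for 15 oligodendrocyte precursor markers. The median microglia marker stood at 410 to 828 RPM and the median neuron marker at 47.8 to 102.9. The labelled cell type was therefore measured in a mixture, in which fewer cells of a type and less RNA per cell cannot be told apart. The hippocampal origin was visible in Prox1, a transcription factor of dentate granule neurons, at normalised values of 74.8 to 244.7 in the hippocampal libraries and 0 to 73.7 in the 12 cortical and olfactory bulb libraries. Camk2a, the calcium/calmodulin kinase of excitatory synapses, stood at 4492 to 13770 in the hippocampus, at 9090 to 14380 in the cortex and at 490 to 1311 in the olfactory bulb, so it set the bulb apart and not the hippocampus. Lymphocyte, granulocyte and erythroid genes were at or near 0, with at least 12 of 14 genes at 0 in each library.

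**Figure D1:**
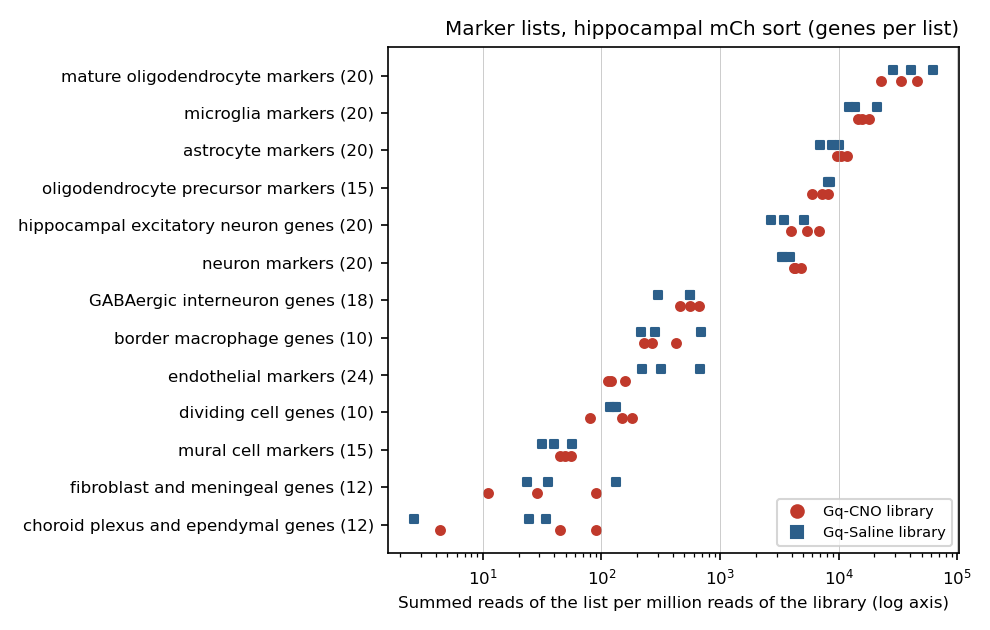
Summed RPM of 13 lists of cell type markers in the 6 hippocampal libraries, on a log axis, with 1 point per library. The oligodendrocyte, microglia and astrocyte lists lie above the neuron lists, and the endothelial list is the one below 1000 whose 3 Gq-CNO points, from 113 to 157 RPM, all lie left of its 3 Gq-Saline points, from 220 to 679.

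Across all genes, no difference between Gq-CNO and Gq-Saline passed the test. limma, fitted on log2(normalised value + 1) with Benjamini-Hochberg adjustment, called 0 of 9808 genes at an adjusted p under 0.05, which is 0%. At an unadjusted p under 0.05 there were 445 genes (4.54%), 222 higher in Gq-CNO (2.26%) and 223 lower (2.27%). Of the tested genes, 930 (9.48%) had groups that did not overlap, 472 higher (4.81%) and 458 lower (4.67%). These shares are the ones to set beside each count of separated members in the lists below. The log2 difference was above 0 for 50.4% of genes and below 0 for 49.6%, with a median of 0.01, above 1 for 12.3% and below -1 for 10.4%. edgeR called 0 genes and DESeq2 called 13 (0.133%), both on the read counts recovered from the normalised values. None of the differences described below is therefore a change that passed the adjusted test in limma, and each is given as a value with its standard error (SE).

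How precisely a gene was measured depended on its level. For the 272 genes with a mean normalised value of 1000 or more, the median standard deviation within a group was 0.28 on the log2 scale, and 0.74% had a log2 difference beyond 1 in either direction. For the 3908 genes with a mean under 50, the median standard deviation was 1.28 and 39.2% lay beyond 1, so a large fold of a low gene was common in these libraries. Among those low genes, 16.9% had at least 1 library without a read.

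The genes with the smallest p were lower in Gq-CNO. Fam98a (ENSMUSG00000002017.10, chr17:75537086-75551946 in mm10) had normalised values of 20.8, 14.7 and 25.8 in Gq-CNO and 111, 222 and 329 in Gq-Saline. The highest Gq-CNO library lay more than 4-fold under the lowest Gq-Saline library. Its log2 difference was -3.27 (SE 0.69, 95% confidence interval -4.68 to -1.86, n = 3 libraries per group), with an adjusted p of 0.433 in limma, 0.409 in edgeR and 1.3e-05 in DESeq2. Leaving out each library in turn gave -3.69 to -2.92.

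Slc25a12, the mitochondrial aspartate/glutamate carrier of neurons, stood at 66.1, 117 and 68.2 in Gq-CNO and 465, 285 and 249 in Gq-Saline, a log2 difference of -1.97 (SE 0.48, limma adjusted p = 0.695). Mdn1, an ATPase that matures the large ribosomal subunit, stood at 79.7, 133 and 92.2 against 298, 470 and 319, a difference of -1.83 (SE 0.45, limma adjusted p = 0.695). In both genes the groups were separated by more than the range within Gq-CNO. Ppm1d, a phosphatase that p53 induces and that switches off the DNA damage response, stood at 70.7, 19.9 and 22.9 against 107, 222 and 338 (log2 difference -2.61, SE 0.66). Zfp37, a zinc finger protein, stood at 29.9, 38.1 and 45.8 against 219, 235 and 144 (-2.35, SE 0.60), and Ubr7, a ubiquitin ligase, at 9.06, 12.5 and 56.1 against 180, 150 and 149 (-3.02, SE 0.76). The limma adjusted p of these 3 genes was 0.695. Of the wider p53 and DNA damage list, 10 of 20 genes were tested, 4 were higher and 6 lower, and Ppm1d alone had groups that did not overlap.

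The other lower genes with the smallest p had a limma adjusted p of 0.99. Tfg, a scaffold of vesicle export from the endoplasmic reticulum, stood at 82.4, 254 and 75.6 in Gq-CNO against 284, 394 and 512 (log2 difference -1.72, SE 0.47). Stt3a, the catalytic subunit of an oligosaccharyltransferase that attaches sugar chains to new proteins, stood at 56.2, 66.8 and 8.02 against 264, 232 and 81.8 (-2.40, SE 0.73). Tmed8, Tmem50b and Poldip3 were also lower in every Gq-CNO library, with log2 differences of -2.36, -1.44 and -2.50. Poldip3, an RNA-binding protein of messenger RNA export, was among the 13 genes called by DESeq2 (adjusted p = 0.029).

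Among the genes higher in Gq-CNO, those with the smallest p differed in how far the groups lay apart, and none of them passed adjustment in limma. Rasa2, a GTPase-activating protein that switches off Ras, stood at 121, 97.2 and 129 in Gq-CNO and 17.6, 12.8 and 25.2 in Gq-Saline, a log2 difference of 2.62 (SE 0.78, limma adjusted p = 0.99, DESeq2 adjusted p = 0.0255). Sart3, a splicing factor that recycles U4 and U6 ribonucleoproteins, stood at 63.4, 69.6 and 87.6 against 3.82, 8.14 and 8.42, a difference of 3.31 (SE 1.03, limma adjusted p = 0.99, DESeq2 adjusted p = 0.0255). In Rasa2 and Sart3 the lowest Gq-CNO library was more than 3-fold above the highest Gq-Saline library. Xk, a membrane protein, stood at 58.9, 192 and 218 against 10.7, 55.6 and 10.8 (2.78, SE 0.81), with 1 Gq-Saline library close to the lowest Gq-CNO library.

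The remaining higher genes had a limma adjusted p of 0.99. Mef2d, an activity-regulated transcription factor, stood at 282, 137 and 151 in Gq-CNO and 37.4, 55.9 and 57.7 in Gq-Saline (log2 difference 1.84, SE 0.58). Lats1, a kinase of the Hippo pathway, stood at 253, 220 and 381 against 118, 103 and 105 (1.34, SE 0.46). Znrf3, a ubiquitin ligase that removes Wnt receptors, stood at 107, 94.5 and 106 against 21.4, 22.3 and 18.04 (2.27, SE 0.77). The values of Znrf3 lay close together within each group. Bok, a Bcl-2 family protein expressed in hippocampal neurons, stood at 82.4, 136 and 108 against 35.9, 22.0 and 8.42 (2.43, SE 0.80). Cmya5, Osbpl6, Man1c1 and Sgpp1 were likewise higher in every Gq-CNO library, with log2 differences of 3.29, 2.46, 1.39 and 1.49.

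**Figure D2:**
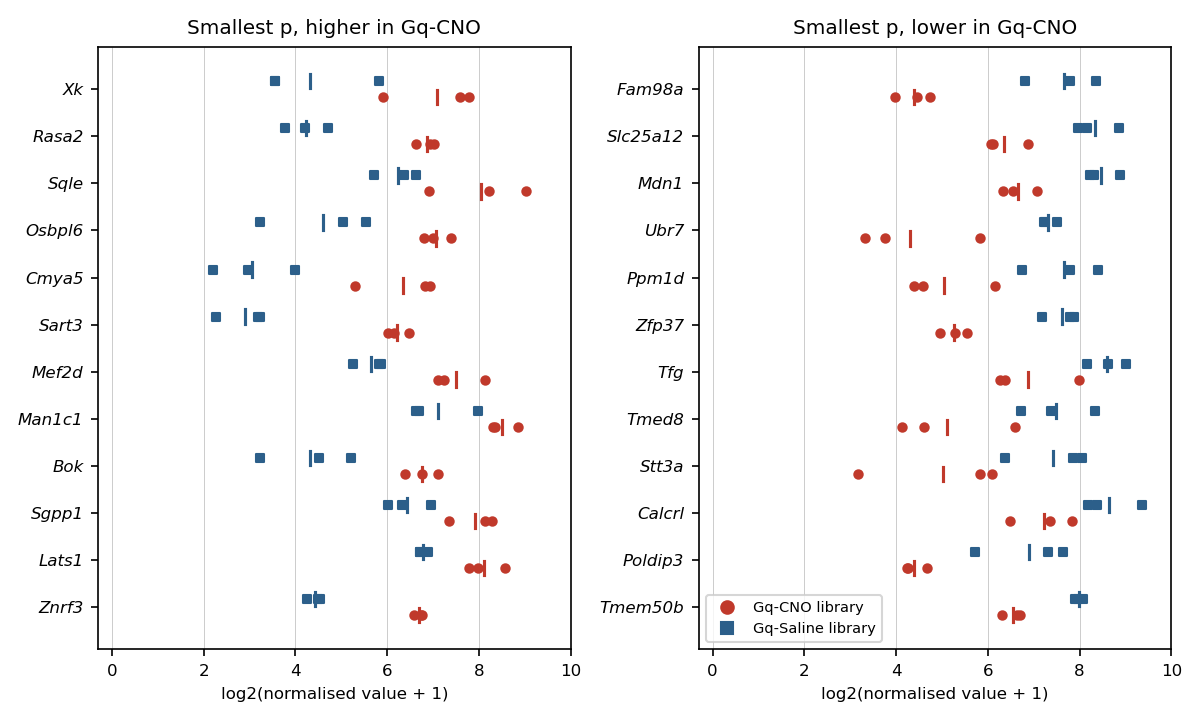
Values of the 12 higher and 12 lower genes with the smallest unadjusted p, taken from genes with separate groups and a larger group mean at or over the median gene, as log2(normalised value + 1), with 1 point per library and a bar at each group mean. Each gene shows a gap between the groups because non-overlap was a condition of the choice, and the limma adjusted p ran from 0.433 for Fam98a to 0.99.

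The endothelial markers were the cell type list farthest from 0. Their sums were 120, 113 and 157 RPM in Gq-CNO and 220, 679 and 318 in Gq-Saline, so every Gq-CNO library was below every Gq-Saline library. Of the 24 genes on the list, 12 passed the filter, of which 11 were lower and 1 higher in Gq-CNO, with a median log2 difference of -1.34 beside 0.01 for all tested genes. In edgeR the median was -1.51. A member that passed the filter only through Gq-Saline had to be lower in Gq-CNO, and with no filter 22 of the 24 members were lower, with a median of -1.31. Without Gq-Saline replicate 2, the library with the most endothelial reads, 8 of 10 tested members were lower and the median was -0.88. Without Gq-Saline replicate 1, 9 of 10 were lower and the median was -1.16.

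Of the 12 tested endothelial markers, 3 had groups that did not overlap and an unadjusted p under 0.05. Over all tested genes, 9.48% had groups that did not overlap and 4.54% a limma unadjusted p under 0.05. Ly6c1 (ENSMUSG00000079018.10, chr15:75044018-75048830), a surface protein of brain capillary endothelium, had 0, 2 and 1 reads in Gq-CNO and 15, 358 and 50 reads in Gq-Saline. Every Gq-Saline library passed the value of 10 that the filter asks for and no Gq-CNO library had more than 2 reads, so without any 1 of the Gq-Saline libraries Ly6c1 would not be tested. The normalised values were 0, 0.45 and 0.57 against 11.4, 127 and 60.1, and the log2 difference was -5.12 (SE 1.52, limma adjusted p = 0.99, DESeq2 adjusted p = 0.000291). Over the summed libraries the read share of Ly6c1 was 202-fold higher in Gq-Saline, with an exact 95% interval of 68.6 to 983 that covers counting error only. Most of the Gq-Saline reads came from replicate 2, and without it the share was 70.9-fold higher. Ly6c2, its close relative on the same chromosome, had 0, 4 and 0 reads against 6, 19 and 0, and how reads shared by the pair were counted is not given in the sources used here.

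Flt1 (ENSMUSG00000029648.13, chr5:147561604-147726011), a receptor of vascular endothelial growth factor, stood at 24.5, 13.1 and 19.5 in Gq-CNO and 29.0, 174 and 207 in Gq-Saline. Gq-Saline replicate 1 lay just above the Gq-CNO libraries and the other 2 far above. The log2 difference was -2.40 (SE 0.85, limma adjusted p = 0.99). Abcb1a (ENSMUSG00000040584.8, chr5:8660077-8748575), the P-glycoprotein drug exporter of the blood-brain barrier, stood at 29.0, 16.1 and 16.04 against 126, 61.3 and 81.8, a difference of -2.08 (SE 0.82, limma adjusted p = 0.99). Every Gq-Saline library was at least 2-fold above every Gq-CNO library. Its neighbour Abcb1b, a close paralog, stood at 27.18, 11.102 and 26.35 against 73.3, 43.2 and 43.3 (-1.32, SE 0.91), so reads of the 2 genes may have been split between them.

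The other tested endothelial markers overlapped between the groups. Slco1a4, an organic anion transporter of brain endothelium, stood at 12.7, 7.48 and 23.5 in Gq-CNO and 17.6, 75.1 and 97.4 in Gq-Saline (log2 difference -1.87, SE 1.01). Ptprb, the vascular endothelial phosphatase, stood at 12.7, 41.7 and 64.7 against 35.9, 348 and 75.8 (-1.56, SE 0.82). Gq-Saline replicate 2 alone held the high Ptprb value. Tek, the angiopoietin receptor, stood at 0.91, 11.10 and 73.9 against 25.2, 43.6 and 25.25, with a difference of -1.38 in limma, -0.11 in edgeR and -0.06 without Gq-CNO replicate 1. Podxl had a difference of -1.30, Eng, Kdr, Cd34 and Pecam1 had -0.56, -0.39, -0.27 and -0.13, and Ramp2, a partner of the adrenomedullin receptor, was the member that was higher, at 0.45. Thus the adhesion molecule Pecam1, with values of 10.9, 34.9 and 27.5 against 77.1, 34.0 and 4.81, did not follow Ly6c1 and Flt1.

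Markers below the filter added defining endothelial genes that were at or near 0 in Gq-CNO. Cldn5, the tight junction protein of brain endothelium, had 0 reads in all 3 Gq-CNO libraries and 1, 51 and 9 reads in Gq-Saline. With a floor of 3 reads set in place of the 0 over the summed Gq-CNO libraries, its read share was 29.1-fold lower in Gq-CNO. Without Gq-Saline replicate 2 it was 10.9-fold lower. The exact 95% interval over all libraries began at 22.96-fold and covers counting error only. Ly6a had 0, 0 and 8 reads against 0, 295 and 44, and Sox17, an endothelial transcription factor, had 0 reads in 5 libraries and 178 in Gq-Saline replicate 2. Cdh5, the endothelial cadherin, had 8, 16 and 15 reads against 3, 73 and 4, and was not lower in each Gq-CNO library. The part of endothelial cell number in these values was not tested.

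**Figure D3:**
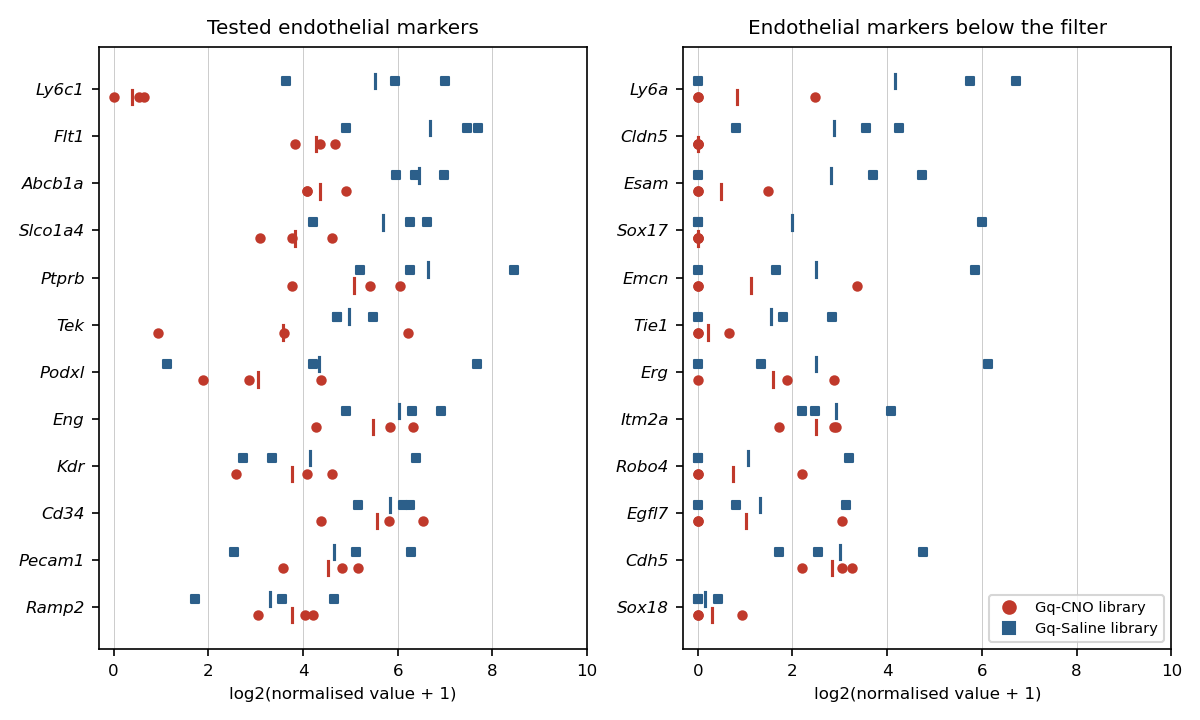
Values of the 24 endothelial markers as log2(normalised value + 1) in the 6 hippocampal libraries, with the 12 tested members on the left and the 12 below the filter on the right, 1 point per library and a bar at each group mean. The points of Ly6c1, Flt1 and Abcb1a separate by group, Cldn5 lies at 0 in all 3 Gq-CNO libraries, and the points of Cd34, Pecam1 and Ramp2 are mixed.

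The promoters of the 3 separated endothelial markers are shown because their genes were lower in the same libraries and because endothelial genes are known for sites of ETS transcription factors, whose core is GGAA. Each runs from 250 bases before to 50 after the start of the gene in RefSeq on GRCm38.p6, 5′ to 3′ on the strand of the gene, and capitals mark AGGAAG or its reverse complement CTTCCT.
Ly6c1 at chr15:75048788-75049087, minus strand: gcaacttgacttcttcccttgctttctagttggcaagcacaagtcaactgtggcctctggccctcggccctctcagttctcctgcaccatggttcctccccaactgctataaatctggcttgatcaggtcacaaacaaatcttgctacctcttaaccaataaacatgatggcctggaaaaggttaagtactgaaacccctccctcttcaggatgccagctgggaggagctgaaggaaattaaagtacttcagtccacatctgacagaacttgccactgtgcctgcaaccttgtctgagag
Flt1 at chr5:147725962-147726261, minus strand: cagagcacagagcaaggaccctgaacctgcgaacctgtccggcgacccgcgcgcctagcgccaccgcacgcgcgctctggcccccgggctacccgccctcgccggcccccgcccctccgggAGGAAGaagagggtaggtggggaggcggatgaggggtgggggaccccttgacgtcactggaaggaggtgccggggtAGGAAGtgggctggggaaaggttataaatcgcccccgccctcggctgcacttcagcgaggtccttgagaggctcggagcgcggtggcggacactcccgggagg
Abcb1a at chr5:8566841-8567140, plus strand: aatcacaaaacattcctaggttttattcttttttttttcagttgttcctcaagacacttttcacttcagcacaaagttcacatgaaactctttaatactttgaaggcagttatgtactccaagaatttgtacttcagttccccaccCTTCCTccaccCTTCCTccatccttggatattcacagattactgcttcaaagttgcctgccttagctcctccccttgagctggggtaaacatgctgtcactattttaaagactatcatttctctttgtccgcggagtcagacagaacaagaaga
The window of Flt1 held 2 matches on the strand of the gene and that of Abcb1a held 2 on the opposite strand, while this window of Ly6c1, 1 of 2 listed for the gene, held 0. The RefSeq start of Abcb1a lies upstream of the GENCODE gene, so the window need not be the promoter in use in these cells. Over all 32851 windows of this length, 35.4% held AGGAAG on either strand. Of the 15 endothelial markers with a window, 12 held it in at least 1 of their windows. A gene with more than 1 window has more chances of a match. The counts of genes are therefore not comparable with the shares of windows, and a share per gene over all genes was not computed. Of these 15 genes, 2 held the longer form ACAGGAAG (3.58% of all windows) and 0 held CCGGAAGT (3.89% of all windows). These motifs overlap in their GGAA core, and a match is a description of the letters and not of binding.

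Vascular genes outside the marker list were mixed. Calcrl, the receptor of calcitonin gene-related peptide and adrenomedullin in blood vessels, stood at 162, 228 and 88.8 in Gq-CNO and 656, 290 and 331 in Gq-Saline (log2 difference -1.41, SE 0.44). Notch4, an endothelial Notch receptor, stood at 0, 0 and 6.87 against 21.4, 92.4 and 10.8 (-3.87, SE 1.55). Slc2a1, the glucose transporter of the blood-brain barrier, stood at 95.1, 31.7 and 130 against 144, 319 and 188 (-1.47, SE 0.57). In all 3 genes the groups did not overlap, and the limma adjusted p was 0.99. Calcrl was among the 12 lower genes for which non-overlap was a condition of the choice. Of the 14 tested VEGF, Notch and angiopoietin genes 2 were separated and lower, beside 4.67% of all tested genes. Of the 13 tested blood-brain barrier transporters 2 were also separated and lower. Notch4 reached the filter's value of 10 in Gq-Saline only, so to be tested it had to be lower and separate. Slc16a1, a lactate transporter, stood at 11.8, 3.399 and 10.3 against 77.8, 8.50 and 86.6 (-2.23, SE 1.18) with overlapping groups. Over whole lists, however, 7 of 13 tested blood-brain barrier transporters were lower (median -0.05), as were 8 of 14 signalling genes of the VEGF, Notch and angiopoietin families (median -0.15) and 8 of 11 junction and Wnt barrier genes (median -0.24).

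Other cells of the vessel wall and its surroundings showed no common direction that held without each library. Mural cell markers had 4 of 15 members tested, with a median of -0.04. Summed mural reads stood at 54.8, 44.4 and 49.1 RPM in Gq-CNO and 31.7, 39.6 and 56.1 in Gq-Saline, with overlapping groups. Border macrophage genes, such as the hyaluronan receptor Lyve1 and the scavenger receptor Cd163, were lower in 6 of 7 tested members with a median of -0.97, but without Gq-Saline replicate 1 they were higher in 4 of 5 with a median of 0.36, and without Gq-CNO replicate 3 higher in 4 of 7 with a median of 0.11.

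Neuron markers were tested in full, 12 of 20 higher and 8 lower in Gq-CNO, with a median log2 difference of 0.27. The median was 0.12 without Gq-CNO replicate 1, 0.18 without Gq-Saline replicate 1 and 0.47 without Gq-Saline replicate 2. Map2, the microtubule protein of dendrites, stood at 2519, 3684 and 3041 in Gq-CNO and 1530, 2291 and 2186 in Gq-Saline. All 3 Gq-CNO libraries were above all 3 Gq-Saline libraries, and the log2 difference was 0.63 (SE 0.23, 95% confidence interval 0.15 to 1.10, limma adjusted p = 0.99). Camk2a stood at 7822, 13770 and 11700 against 4492, 10120 and 7444, a difference of 0.63 (SE 0.23, limma adjusted p = 0.99). Its groups overlapped, and without Gq-Saline replicate 1 the difference was 0.32. Nefl, a neurofilament subunit, and Syn1, a synaptic vesicle protein, had differences of 0.73 and 0.62 with overlapping groups. Without Gq-Saline replicate 3 that of Nefl was 0.37, and without Gq-Saline replicate 1 that of Syn1 was 0.088. Tubb3, a neuronal tubulin, had a difference of -1.70.

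Hippocampal excitatory neuron genes were higher in 11 of 20 tested members, with a median of 0.23 in limma and -0.06 in edgeR, so the list had no settled direction. Bok, Camk2a and Wfs1 were the members with an unadjusted p under 0.05. Wfs1, a protein of the endoplasmic reticulum enriched in CA1 pyramidal neurons, stood at 124, 109 and 167 against 109, 64.1 and 10.8 (1.59, SE 0.72), and without Gq-Saline replicate 3 the difference was 0.64. Tbr1, a transcription factor of cortical and hippocampal excitatory neurons, stood at 16.3, 37.8 and 21.8 against 90.1, 37.5 and 75.8 (-1.38, SE 0.84). Of the GABAergic interneuron genes, 8 of 18 were tested, 3 were higher and 5 lower, and the cannabinoid receptor gene Cnr1 alone had separate groups, with 235, 89.3 and 84.8 against 83.9, 69.0 and 25.2. Gad1, the enzyme that makes GABA, was below the filter, with 4.53, 21.5 and 4.01 against 4.58, 16.6 and 4.81.

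Synaptic lists leaned toward Gq-CNO with single members that went either way. Of 23 tested synaptic vesicle genes 14 were higher (median 0.25), of 20 postsynaptic scaffold and kinase genes 14 were higher (median 0.23), and of 19 glutamate receptor subunits 12 were higher (median 0.20). Without Gq-Saline replicate 1 these medians were 0.09, 0.15 and 0.06, and without Gq-Saline replicate 3 the glutamate receptors were higher in 9 of 19 with a median of -0.03. Cplx1, a clamp of vesicle fusion, stood at 376, 252 and 378 in Gq-CNO and 246, 164 and 127 in Gq-Saline (log2 difference 0.93, SE 0.42). Dlg4, which encodes the scaffold PSD-95, stood at 527, 854 and 590 against 275, 467 and 432 (0.75, SE 0.34). Both had separate groups and a limma adjusted p of 0.99. Cplx1 was the 1 of 23 vesicle genes, and Dlg4 the 1 of 20 postsynaptic genes, separated and higher. Over all tested genes 4.81% were separated and higher.

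Of 19 tested glutamate receptor subunits, 3 were separated and higher and 2 separated and lower, beside 4.81% and 4.67% of all tested genes. Grin2c, an NMDA receptor subunit that astrocytes also express, stood at 34.4, 71.8 and 53.8 in Gq-CNO and 3.05, 13.5 and 3.61 in Gq-Saline (3.01, SE 1.14). Grik5, a kainate receptor subunit, stood at 110, 167 and 321 against 76.3, 91.4 and 77.0 (1.14, SE 0.54), and the AMPA receptor subunit Gria1 at 492, 340 and 535 against 327, 338 and 182 (0.72, SE 0.37). In the other direction, the AMPA receptor subunit Gria3 had a difference of -0.36 and the obligate NMDA receptor subunit Grin1 -0.88, each lower in all 3 Gq-CNO libraries. At inhibitory synapses, the adhesion protein Nlgn2 stood at 285, 147 and 136 against 426, 240 and 388 (-0.93, SE 0.42) and the scaffold gephyrin, Gphn, at 22.6, 50.5 and 83.1 against 87.8, 152 and 94.99 (-1.22, SE 0.67). Gphn had separate groups and Nlgn2 did not. Among 28 tested voltage-gated channels 17 were lower (median -0.27). The potassium channel Kcnq5, which carries the M current, had separate groups at 2.05 (SE 0.89), and the calcium channel Cacna1a at -1.34 (SE 0.56).

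Immediate early genes, which neuronal activity can induce, were followed, and most were low. In this mixture their reads cannot be assigned to neurons, and which cells held them was not tested. Of 30 genes on the list 18 were tested, 11 were higher and 7 lower, with a median of 0.42 in limma and 0.14 in edgeR, and 0.06 without Gq-Saline replicate 3. Egr1, an activity-induced zinc finger factor, stood at 264, 483 and 342 in Gq-CNO and 253, 200 and 94.99 in Gq-Saline. Its groups did not overlap but nearly touched, since Gq-CNO replicate 1 and Gq-Saline replicate 1 were close, and the log2 difference was 1.05 (SE 0.43, limma adjusted p = 0.99). Without Gq-Saline replicate 3 it was 0.64.

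The other activity genes were mixed. Fosl2, a Fos family factor, stood at 22.6, 56.0 and 60.1 in Gq-CNO and 2.29, 45.0 and 10.8 in Gq-Saline (1.84, SE 1.109), Jun at 131, 145 and 131 against 29.8, 183 and 57.7 (0.98, SE 0.62), and Nr4a2, an orphan nuclear receptor, at 146, 151 and 65.3 against 9.92, 127 and 66.1 (1.33, SE 0.76). All 3 overlapped between the groups and were lowest in Gq-Saline replicate 1, without which the differences were 0.90, 0.40 and 0.30. Fos stood at 5.43, 62.5 and 146 against 71.7, 133 and 6.01 (-0.06, SE 1.06, 95% confidence interval -2.21 to 2.09), and Arc, which encodes a synaptic capsid-like protein, at 50.7, 91.1 and 36.7 against 45.0, 66.6 and 62.5 (-0.05, SE 0.72). Their spread within a group covered most of the range of both groups, and the sign of both differences turned in edgeR and DESeq2. Npas4, a neuron-specific activity factor, was below the filter at 5.43, 7.93 and 22.3 against 2.29, 0 and 3.61, every Gq-CNO library above every Gq-Saline library. Nr4a1 was lower in all 3 Gq-CNO libraries (-1.32, SE 0.85) and Ier5 higher in all 3 (0.99, SE 0.85). Of 22 tested genes of the Gq, phospholipase C and calcium store list 12 were higher and 10 lower (median 0.08), with no member at an unadjusted p under 0.05. Itpr1, the calcium release channel, stood at 598, 1013 and 888 against 414, 831 and 455 (0.59, SE 0.32). Stim2, a sensor of calcium stores, was the 1 of 22 members with separate groups, at 0.63 (SE 0.58), beside 9.48% of all tested genes.

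Among glia, astrocyte markers were higher in 17 of 20 tested members, with a median of 0.28. Without Gq-Saline replicate 1 they were higher in 11 of 20 with a median of 0.11. No member had an unadjusted p under 0.05. Gfap, the intermediate filament of astrocytes, stood at 226, 192 and 192 in Gq-CNO and 126, 169 and 130 in Gq-Saline (log2 difference 0.53, SE 0.46), and Gpc5, a glypican, at 89.7, 195 and 128 against 62.6, 87.8 and 40.9 (1.09, SE 0.60). These 2 of the 20 members had separate groups, beside 9.48% of all tested genes. Slc1a2, the main glutamate transporter and one of the most abundant transcripts, differed by 0.28 (SE 0.18). Sox9, an astrocyte transcription factor, stood at 110, 51.9 and 167 against 80.9, 117 and 91.4 (0.05, SE 0.59).

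Oligodendrocyte lineage genes leaned the other way. Mature markers were lower in 11 of 16 tested members (median -0.36) and precursor markers in 13 of 15 (median -0.34). Ermn, a cytoskeletal protein of myelinating cells, stood at 300, 346 and 492 in Gq-CNO and 401, 796 and 875 in Gq-Saline (-0.82, SE 0.35). Mobp, a myelin protein, stood at 4278, 2160 and 5014 against 4054, 4460 and 9611 (-0.64, SE 0.27). Their unadjusted p was under 0.05 and the limma adjusted p 0.99. Both overlapped between the groups, and Gq-Saline replicate 3 had the highest value of each. Without that replicate the mature list had a median of -0.13, and without Gq-CNO replicate 1 the precursor list was lower in 10 of 15 with a median of -0.10.

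Microglia markers differed little. They were higher in 16 of 20 members with a median of 0.10, and without Gq-Saline replicate 2 they were higher in 8 of 20 with a median of -0.02. Sall1, a transcription factor of microglial identity, stood at 299, 272 and 343 in Gq-CNO and 482, 354 and 448 in Gq-Saline (-0.48, SE 0.35). It was the 1 of 20 markers with separate groups, beside 9.48% of all tested genes. Apoe, a lipid carrier of glia, stood at 1157, 1346 and 1127 against 1029, 1049 and 679 (0.42, SE 0.27) with separate groups. Interferon-stimulated genes had 5 higher and 6 lower of 11 tested, with Irf9, a subunit of the interferon-activated complex ISGF3, at 7.25, 0.68 and 0 against 38.2, 12.4 and 57.7. Irf9 reached the filter's value of 10 in Gq-Saline only, so to be tested it had to be lower and separate.

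**Figure D4:**
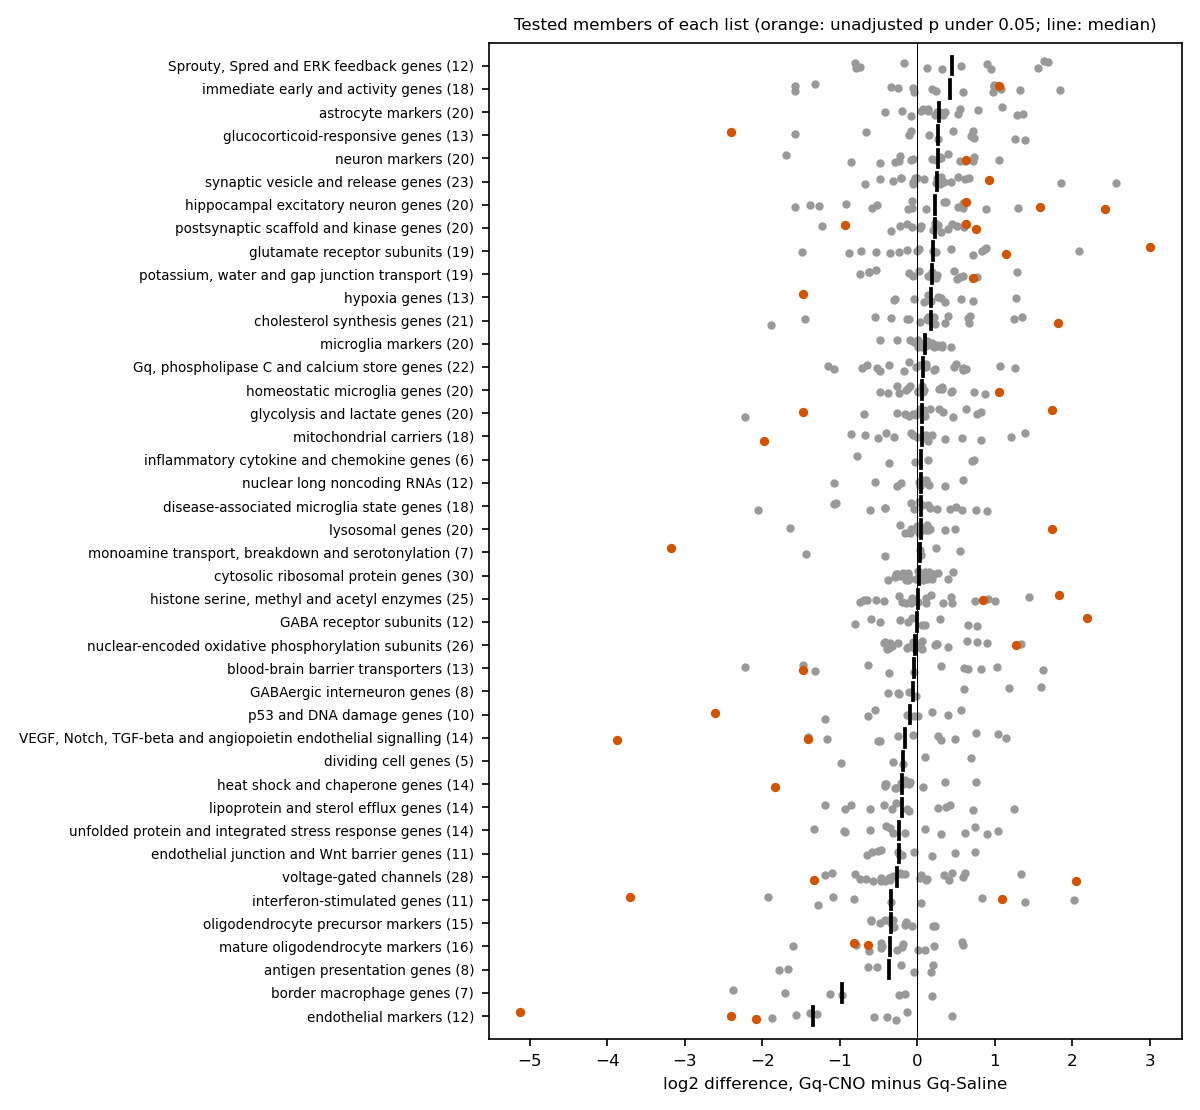
Log2 differences, Gq-CNO minus Gq-Saline, of the tested members of 42 gene lists, with 1 point per gene, orange for an unadjusted p under 0.05 and a black line at the median of the list. The medians run from -1.34 for the endothelial markers to 0.44 for the Sprouty, Spred and ERK feedback genes, and most lie within 0.4 of 0.

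Monoamine uptake and breakdown genes were followed because the series also studies Slc22a3, the organic cation transporter OCT3. Slc22a3 had 32 reads in Gq-CNO replicate 3 and 0 in the other 5 hippocampal libraries, while its relative Slc22a2 had 0 in all 6. Slc29a4, the plasma membrane monoamine transporter, stood at 0.91, 13.6 and 2.86 in Gq-CNO and 187, 35.1 and 10.8 in Gq-Saline (log2 difference -3.18, SE 1.32, limma adjusted p = 0.99). Its highest Gq-CNO library was above its lowest Gq-Saline library. The monoamine oxidases Maoa and Maob differed by 0.24 (SE 0.80) and -1.44 (SE 1.02), and Tgm2, a transglutaminase that can attach serotonin to proteins, by -0.41 (SE 0.75), all with overlapping groups.

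Metabolic genes contained single separated members within lists whose medians lay near 0. Sqle, the squalene epoxidase of cholesterol synthesis, stood at 521, 119 and 299 in Gq-CNO and 81.7, 51.3 and 98.6 in Gq-Saline (log2 difference 1.82, SE 0.54, limma adjusted p = 0.99). The cholesterol synthesis list was higher in 15 of 21 tested members with a median of 0.17, and Mvk, the mevalonate kinase of the same pathway, was lower in all 3 Gq-CNO libraries (-1.89, SE 1.15). Pfkp, a phosphofructokinase of glycolysis, stood at 164, 93.4 and 343 against 42.7, 68.3 and 46.9 (1.73, SE 0.60), and Ldha, a lactate dehydrogenase subunit, at 281, 259 and 345 against 99.97, 204 and 222 (0.82, SE 0.43). Among 26 oxidative phosphorylation subunits 12 were higher (median -0.03), with separate groups for Uqcrc1 (1.27, SE 0.58), Atp5o (0.90, SE 0.48), Ndufb8 (0.77, SE 0.57) and Sdhb (0.40, SE 0.51), all higher. Over all tested genes 4.81% were separated and higher. Cytosolic ribosomal protein genes centred on 0.02, with 16 of 30 higher and members from -0.38 to 0.46.

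Stress and chromatin genes were likewise divided. Heat shock and chaperone genes were lower in 11 of 14 tested members (median -0.19). The abundant chaperone genes Hsp90aa1 and Hsp90ab1 stood at 1973, 2030 and 1832 against 2736, 2312 and 2715 and at 2562, 2518 and 2601 against 2948, 2907 and 3488. Both were lower in all 3 Gq-CNO libraries, by log2 differences of -0.41 (SE 0.22) and -0.28 (SE 0.21). Tsc22d3, a glucocorticoid-induced leucine zipper protein, stood at 3.62, 26.3 and 21.8 against 52.6, 156 and 49.3 (-2.40, SE 0.96), while the glucocorticoid list as a whole was higher in 8 of 13 (median 0.27). Crebbp, the histone acetyltransferase CBP, stood at 1186, 902 and 862 against 507, 708 and 435 (0.85, SE 0.30), and Kat2a, the acetyltransferase GCN5, at 148, 110 and 150 against 38.2, 13.5 and 96.2 (1.83, SE 0.70). Both had separate groups and a limma adjusted p of 0.99. The other 23 of the 25 tested histone enzymes had overlapping groups, and the list median was 0.01. Over all tested genes 9.48% had separate groups.

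The difference between Gq-CNO and Gq-Saline was then set against the same contrast in the cortical and olfactory bulb mCh sorts. These share a table but no libraries with the hippocampal ones. Cortical Gq-CNO replicate 3 had 228048 reads, and the other cortical libraries had 695264 to 2488821. In that replicate 1 read had a value of 10.49, so 1 read reached the filter's value of 10 and a 0 says little. As a description across genes, which share libraries and are no replicates, the hippocampal log2 differences had a Pearson's r of 0.043 with the cortical ones over 8781 genes and 0.033 with the olfactory bulb ones over 9266 genes. The test of the difference of effects over all 18 libraries called 0 of 12358 genes (0%) in limma for hippocampus minus cortex, with 744 (6.02%) at an unadjusted p under 0.05, 0 in edgeR and 21 (0.17%) in DESeq2. For hippocampus minus olfactory bulb limma called 0, with 329 (2.66%) at an unadjusted p under 0.05, DESeq2 called 0 and edgeR 1 (0.00809%). That gene was Tspyl5, at 0 to 35.9 in the 6 hippocampal libraries and at 8144 in 1 olfactory bulb Gq-CNO library against 0 to 23.9 in the other 5.

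Map2 and Camk2a had the smallest p of the genes more positive in the hippocampus than in the olfactory bulb. In the bulb Map2 stood at 964, 1184 and 1071 in Gq-CNO and 2617, 1503 and 1412 in Gq-Saline, the reverse order of the hippocampal groups. The difference of effects was 1.35 (SE 0.34, limma adjusted p = 0.999). Camk2a stood at 490, 736 and 687 against 1311, 736 and 1129 in the bulb, and its difference of effects was 1.34 (SE 0.36, limma adjusted p = 0.999). Over the neuron markers, 7 of 20 were higher in the bulb (median -0.36) and 7 of 20 in the cortex (median -0.12), beside 12 of 20 in the hippocampus. Ets1, an ETS transcription factor, was more negative in the hippocampus, at 76.1, 80.9 and 56.7 against 213, 151 and 114 there and 91.5, 139 and 96.8 against 23.6, 37.2 and 37.5 in the bulb (difference of effects -2.83, SE 0.93, limma adjusted p = 0.999).

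Against the cortex, Mdn1 was among the genes with the smallest p. Its cortical values were 390, 150 and 168 in Gq-CNO and 62.2, 163 and 102 in Gq-Saline, and the difference of effects was -2.91 (SE 0.71, limma adjusted p = 0.517). Cnnm1, a metal transport mediator, and Lin52, a subunit of a cell cycle repressor complex, had differences of effects of -6.02 (SE 1.46) and -7.13 (SE 1.77), and the zinc finger genes Znf512b and Zfp142 had 6.46 (SE 1.41) and 5.09 (SE 1.34). These rest in part on cortical libraries at or near 0, and Znf512b and Zfp142 were at 0 in the shallow cortical Gq-CNO replicate 3. Flt1 had cortical values of 64.4, 6.99 and 0 against 0, 3.92 and 43.5 and bulb values of 42.4, 136 and 250 against 20.9, 55.6 and 279, so its groups overlapped in both. Its difference of effects was -2.82 for the cortex and -3.11 for the bulb, with limma adjusted p of 0.85 and 0.999. Of the endothelial markers tested in the hippocampus, 5 passed the filter in the cortex, 4 higher and 1 lower, with a median of 0.46. In the bulb 10 passed, 5 higher and 5 lower, with a median of 0.05. The lower marker in the cortex was Ptprb (-4.03), and Ly6c1 was lower in the bulb (-4.22). Outside the list, Calcrl stood at 80.6, 212 and 83.9 against 538, 587 and 570 in the cortex, with separate groups (-2.31). Calcrl differed by -0.09 in the bulb, and Slc2a1 by 0.70 in the cortex and -0.36 in the bulb. The lower endothelial reads were therefore not shown to be particular to the hippocampus.

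**Figure D5:**
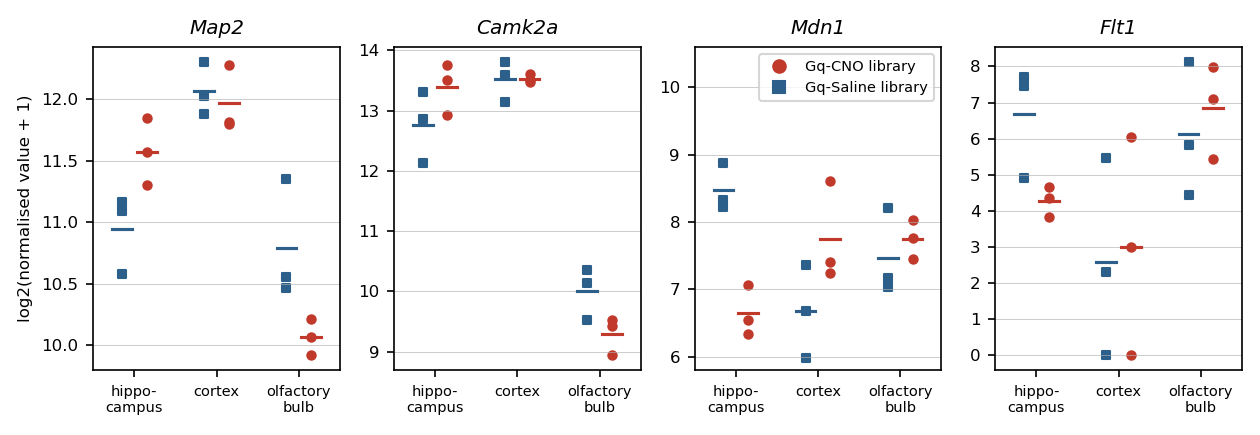
Map2, Camk2a, Mdn1 and Flt1 as log2(normalised value + 1) in the mCh sorts of hippocampus, cortex and olfactory bulb, with 1 point per library, a bar at each group mean and a separate vertical scale for each gene that does not start at 0. In the hippocampus Map2 is higher and Mdn1 and Flt1 are lower in all 3 Gq-CNO libraries, and in the bulb the order of the Map2 groups is the reverse.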

How the data were processed

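RNA of mCh sorted cells was sequenced from hippocampus, cortex and olfactory bulb, 3 libraries per region and treatment. Per the labels' protocols, RNA was isolated with RNeasy Micro columns, and NuGEN Trio libraries were made from 10 ng of total RNA and read as paired ends. Per the submitters' processing notes, FastQC 0.11.7, MultiQC 1.11, STAR 2.5.0a, DESeq2 1.30.1 and mm10 were used; the read counter and annotation are not given in the sources used here. The authors deposited a normalised signal per gene, which is the read count divided by 1 size factor per library over the 18 libraries of the table. Whole reads were recovered for 100% of values within 0.05 of a read, so 0 values are 0 reads. The 27 entries whose names had been turned into dates were named nowhere.

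The main test was limma 3.58.1 (R 4.3.3) with a mean-variance trend on log2(value + 1), over genes that reached a value of 10 in 3 or more of the 6 hippocampal libraries, with Benjamini-Hochberg adjustment at 0.05 and no replicate block. A fold on this scale understates the change of low genes. Differences of effects between regions were interaction terms over all 18 libraries. The recovered reads were also tested with edgeR 4.0.16 (quasi-likelihood, TMM) and with DESeq2 1.42.0. The design had been written for normalised values, as found. Other alternatives were pseudocounts of 0.1 and 5, no filter, a filter at 50, no trend, quantile normalization, RPM without Rn45s, 1 model over 18 libraries, a replicate block and each library left out. Read ratios without a Gq-Saline library were added after seeing the data. The fits were tested on simulated data with 200 changed genes. Marker sums are in RPM, reads scaled to a library total of 1000000. No 2 libraries held identical values, and all pairs differed by more than sampling noise. Positions are from GENCODE vM21 on mm10, and promoters from RefSeq on GRCm38.p6.

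The genes named are a fixed set of monoamine, activity and interneuron genes; up to 12 higher and 12 lower genes by p among non-overlapping genes at or above the median level; all tested endothelial markers; up to 4 members of each other list by p; and genes called by edgeR or DESeq2. Prox1, Grin1, Gria3, Nr4a1, Ier5, Gfap, Stim2, Sdhb and the endothelial markers below the filter were added after their values were seen, as were the motifs. Members and lists were chosen with earlier results of these data known. Intervals of read ratios and floors of 3 reads cover counting error only, since the reads carry no molecular identifiers in the sources used here. A few genes covered by the rule are not reported here.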

Additional observations from a re-analysis of the deposited data

How the results depend on the processing

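The count of 0 genes called in the hippocampal comparison held in limma under both other pseudocounts, no filter, a filter at 50, no trend, quantile normalization, RPM without Rn45s, the 18-library model and each left-out library (0 to 0 calls, with 375 to 530 genes at an unadjusted p under 0.05 when a library was left out), and in edgeR (407 unadjusted). DESeq2 called 13 genes (613 unadjusted). For the difference of effects, DESeq2 called 21 genes against the cortex and edgeR called 1 against the olfactory bulb; the cause was not tested. Whether replicate numbers paired the samples is not given in the labels. The deviations of same-numbered libraries correlated at 0.031, 0.00878 and 0.0248, values too low to tell a weak pairing from none. Every library did correlate best with its own number, which is a hint from the data and not from the design. With the replicate block limma called 0 genes in the hippocampal comparison (499 unadjusted) and 0 in both differences of effects.

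Of 95 genes named with a hippocampal difference, 9 turned sign under some alternative. Arc went from -0.05 to 0.0374 in DESeq2, 0.0569 in edgeR and 0.00936 with RPM without Rn45s, and Fos from -0.06 to 0.0257 in DESeq2 and 0.0289 in edgeR. With a library left out, Arc ran from -0.40 to 0.24, Fos from -1.33 to 1.24, Sox9 from -0.33 to 0.50, Maoa from -0.27 to 1.15, Pecam1 from -1.19 to 0.69, Cd34 from -0.75 to 0.33, Kdr from -1.10 to 0.20, Eng from -1.13 to 0.0438 and Ramp2 from -0.34 to 1.12. Counting these, 39 of the 95 differences turned or were smaller by over 1.5 times without some 1 library, among them Ptprb (-0.66 at the least), Slc2a1 (-0.88), Mobp (-0.24) and Tgm2 (-0.04). Apart from the 9, the other 86 kept their sign wherever they were tested, and 10 of the 95 passed adjustment in DESeq2. For genes with separate groups, leaving out a library could not turn the sign, so the kept signs are no support for them. Ly6c1, Notch4, Irf9 and Sart3 were tested in 3 of the 6 fits with a library left out. With 3 libraries per group, the median standard error over tested genes was 0.76 on the log2 scale, and differences well above that size did not pass adjustment.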

Other observations

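Of the 13 genes called by DESeq2 on the recovered reads, Psmd10 and Alkbh1 were among those not described above, and not all 13 are named. Psmd10, a chaperone of proteasome assembly, had 4, 12 and 1 reads in Gq-CNO and 112, 98 and 62 in Gq-Saline. Alkbh1, a demethylase of nucleic acids, had 0, 1 and 4 reads against 114, 36 and 56. In both genes every Gq-Saline library held more reads than all 3 Gq-CNO libraries together. Both reached the filter's value of 10 in Gq-Saline only, so a lower value in Gq-CNO was a condition of their test. The read share in Gq-Saline was 22.9-fold that in Gq-CNO for Psmd10 (exact 95% interval 14.0 to 39.9) and 59.0-fold for Alkbh1 (24.9 to 184), intervals that cover counting error only. With a Gq-Saline library left out, a check chosen after seeing the data, the values ran from 18.04 to 33.49 for Psmd10 and from 35.3 to 111 for Alkbh1.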
